A study of Arabidopsis thaliana with 6 samples.

Results

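The genes described here carry nitrate and ammonium into plant cells and reduce nitrate to ammonium in the leaf. They were chosen by name, as 9 loci of Arabidopsis thaliana, given here with their probe set names: the nitrate reductase genes NIA1 (AT1G77760_at) and NIA2 (AT1G37130_at), the nitrite reductase gene NIR1 (AT2G15620_at), the nitrate transporter genes NRT1.1 (AT1G12110_at) and NRT2.1 (AT1G08090_at), and the ammonium transporter genes AMT1;1 (AT4G13510_at), AMT1;2 (AT1G64780_at), AMT1;3 (AT3G24300_at) and AMT2 (AT2G38290_at). The table holds 21430 probe sets, each named for 1 locus, and 8 of the 9 genes are among them. AMT1;3 has no probe set there and was not analysed here.

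Leaves were taken from soil-grown plants kept in short days, which spent their first 6 weeks at 400 ppm CO2. The low CO2 group then spent 24 h at 100 ppm CO2, while the ambient CO2 group remained at 400 ppm. No genotype or accession is given in the labels, and both groups shared soil, day length and age. Each group had 3 arrays, and each array was made from leaf material of 4 to 5 pooled plants. The labels do not say that the pools were grown at separate times, so p-values measure the spread between these pools.

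Nitrate enters cells through transporters of the NRT1 and NRT2 families. Nitrate reductase, a molybdenum enzyme of the cytosol, turns it into nitrite, and nitrite reductase, a siroheme enzyme of the chloroplast, turns nitrite into ammonium with electrons from ferredoxin. Ammonium also enters through AMT transporters, and in an illuminated leaf a large flow of it is released in mitochondria by photorespiration, the cycle that recovers carbon after Rubisco has fixed oxygen. Nitrate reductase transcripts are known to follow nitrate, light, sugars and the circadian clock. The series places the low CO2 treatment under photorespiratory stress.

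Values are log2 expression made with GCRMA, a method that corrects array background by probe sequence. Only probe sets with 3 or more arrays at or above log2 4 were tested, 16210 in all, and the 8 measured genes are among them. Low CO2 replicate 1 stood apart from its group: over the probe sets tested, which share arrays and depend on each other, its correlation was 0.980 to 0.986 with ambient arrays, but 0.962 with replicate 2 and 0.947 with replicate 3 of its own group. The values of the 8 genes are therefore given with and without it. The array is left out because of its values, which narrows the spread of its group, so limma p values without it are likely too small. Precision is limited throughout by having 3 arrays per group.

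Leaf identity was checked with RCA, CA1, LHCB4.1 and GLDP1, genes of photosynthesis and photorespiration, which lay between log2 12.64 and 14.20 on every array. Of these 4, 3 had a higher mean in low CO2, with a mean level of 13.61 to 13.69 against 13.49 to 13.54. GLDP1 differed by 0.48 (SE 0.12), CA1 by 0.08, LHCB4.1 by 0.03 and RCA by -0.05. For GLDP1 and CA1 all low CO2 arrays lay above all ambient arrays, as for 14.6% of all tested probe sets. RBCS1A and LHCB2.1 have no probe set in the table. Of the markers of other cell types, 5 of 6 tested root markers had a lower mean in low CO2, with a mean level over the 7 measured of 4.81 to 4.89 in low CO2 and 4.97 to 5.08 in ambient CO2. PYK10, a beta-glucosidase gene, reached 9.81, and each other tested root marker stayed at or below 4.80, near the filter level of log2 4. For guard cells, 4 of 5 markers had a lower mean, and their mean level was 5.32 to 5.63 against 5.70 to 6.01. Of these, HT1 and SLAC1 reached only 5.00 and 4.93. Vascular markers had a higher mean in 3 of 4, with a mean level over 5 of 5.98 to 6.28 against 5.95 to 6.08. Of all 16210 tested probe sets, 8718 had a lower and 7492 a higher mean. The part of these shifts in the results below was not tested. In whole leaves, fewer cells of a type and less RNA per cell cannot be told apart, nor can background signal for markers near the filter level.

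Ammonium transporter genes were higher in low CO2, and genes of nitrate reduction and NRT1.1 were lower, by their means. AMT1;1 stood 1.91-fold above ambient CO2, AMT1;2 1.79-fold and AMT2 1.38-fold. NRT1.1 stood 1.5-fold below, NIR1 1.47-fold, NIA1 1.24-fold and NIA2 1.16-fold, while NRT2.1 was within 1.03-fold. By limma with Benjamini-Hochberg adjustment over all tested probe sets, 0 of the 8 passed an adjusted p of 0.05 in either direction, where 0% of the 16210 passed. At an unadjusted p under 0.05, 3 of 8 were higher (AMT1;1, AMT1;2 and AMT2) and 0 lower, beside 13.5% and 12.6% of all tested probe sets. Without low CO2 replicate 1, 1 rose (AMT1;1) and 2 fell (NIR1 and NRT1.1) at an adjusted p under 0.05, beside 16.8% of all tested probe sets that rose and 18.5% that fell. All low CO2 arrays lay above all ambient arrays for 2 of the 8, AMT1;1 and AMT2, beside 14.6% of all tested probe sets, and below them for 0 of the 8, beside 14.3%.

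**Figure D1:**
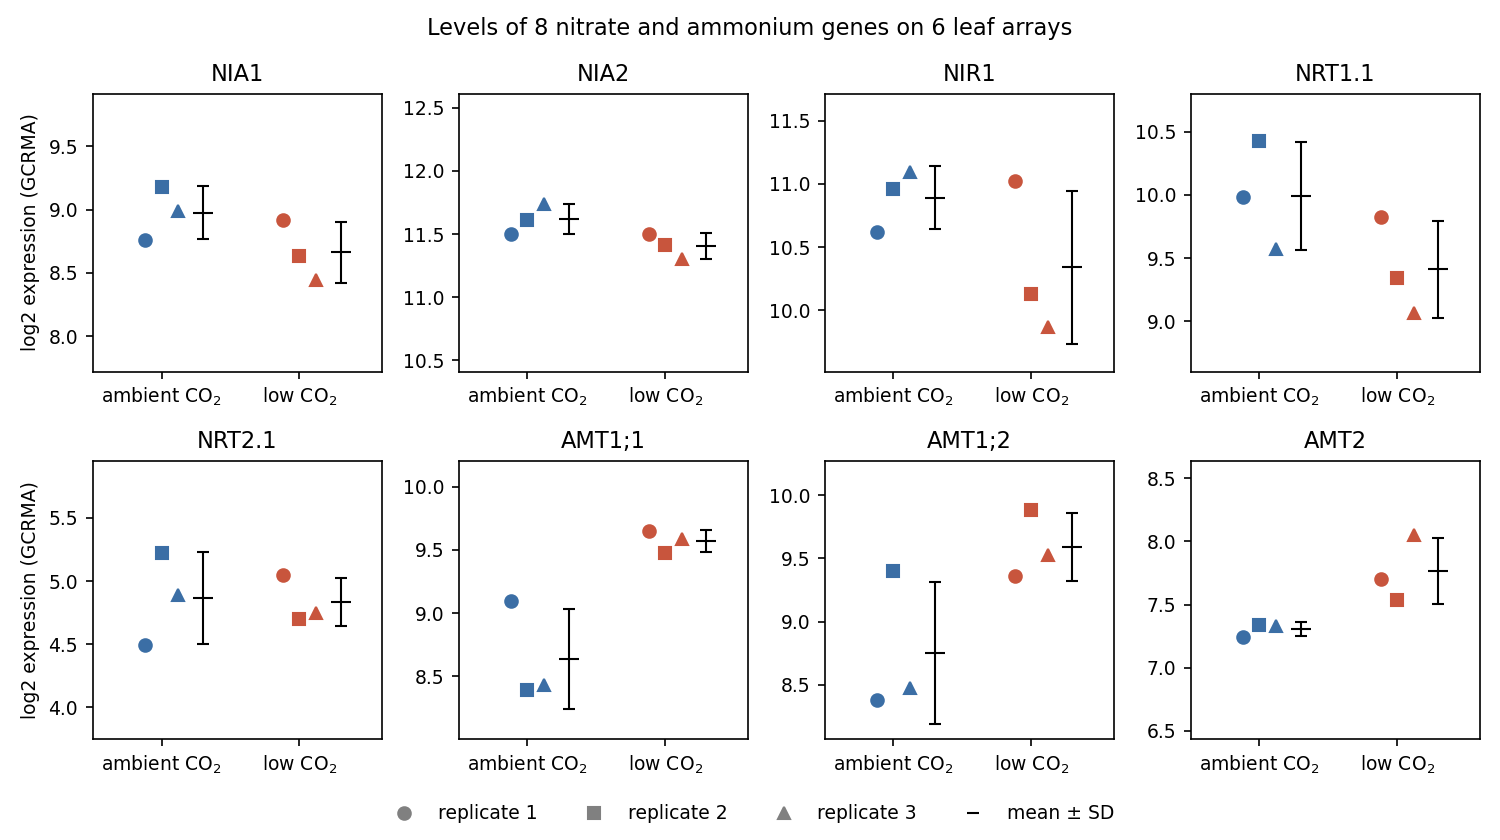
Log2 expression of the 8 measured genes on each array, with ambient CO2 in blue and low CO2 in red. Symbols mark the replicate number, and the bars beside them give the mean ± SD of 3 arrays, with panels spanning the same log2 range. The 3 low CO2 arrays lie above all ambient arrays for AMT1;1 and AMT2, and for NIR1 low CO2 replicate 1 lies among the ambient arrays.

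AMT1;1 encodes a high-affinity ammonium transporter of the plasma membrane, best known from roots and also present in leaves. Its levels in low CO2 replicates 1, 2 and 3 were log2 9.65, 9.48 and 9.59, and in ambient replicates 1, 2 and 3 they were 9.09, 8.39 and 8.43. The low CO2 arrays lay close together and above every ambient array, and the widest spread was in ambient air, where replicate 1 was high. The means were 9.57 ± 0.09 (SD, n = 3) and 8.64 ± 0.40 (SD, n = 3), a difference of 0.93 (SE 0.20, 95% interval 0.45 to 1.42, limma adjusted p = 0.118). The difference was 0.90 (limma adjusted p = 0.02) when low CO2 replicate 1 was removed. That array gave the highest of the 3 low CO2 values, 1.01 above the ambient mean.

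AMT1;2 encodes a second transporter of the same family, known from the root endodermis and cortex. Its levels were 9.36, 9.88 and 9.53 in low CO2 and 8.38, 9.40 and 8.47 in ambient CO2, in replicate order. Ambient replicate 2 was slightly above low CO2 replicate 1, so the groups overlapped. The difference was 0.84 (SE 0.29, 95% interval 0.14 to 1.53, limma adjusted p = 0.149). It was 0.95 with low CO2 replicate 1 removed (limma adjusted p = 0.0502). Removing ambient replicate 1 gave 0.65, and removing ambient replicate 2 gave 1.16.

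AMT2 belongs to a separate branch of the ammonium transporters and is known to act in moving ammonium from root to shoot. In low CO2 its levels were 7.71, 7.54 and 8.05, and in ambient CO2 they were 7.24, 7.34 and 7.33. The ambient values were nearly equal, and each low CO2 array lay above them. AMT2 differed by 0.46 (SE 0.15, 95% interval 0.10 to 0.82, limma adjusted p = 0.142), or by 0.49 with low CO2 replicate 1 removed (limma adjusted p = 0.0563). Among other AMT genes, AMT1;4, known from pollen, had overlapping levels from 4.59 to 5.08 in low CO2 and from 4.65 to 4.89 in ambient CO2, and AMT1;5 has no probe set in the table.

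NIA2 encodes the isoform that supplies most nitrate reductase activity in Arabidopsis leaves. Its levels were 11.50, 11.42 and 11.30 in low CO2 replicates 1, 2 and 3, and 11.50, 11.61 and 11.74 in ambient CO2. Low CO2 replicate 1 lay just above ambient replicate 1, and the other low CO2 arrays were below every ambient array. The difference was -0.21 (SE 0.12, 95% interval -0.49 to 0.07, limma adjusted p = 0.288), and -0.26 with low CO2 replicate 1 removed (limma adjusted p = 0.134).

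NIA1, the paralogue with the smaller share of activity, stood at 8.92, 8.63 and 8.44 in low CO2 and at 8.76, 9.18 and 8.99 in ambient CO2. Again replicate 1 was inside the ambient range and replicates 2 and 3 were below it. NIA1 differed by -0.31 (SE 0.17, 95% interval -0.72 to 0.09, limma adjusted p = 0.277), and by -0.44 with low CO2 replicate 1 removed (limma adjusted p = 0.0604). The intervals of both genes leave room for a small increase as well as a decrease.

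NIR1, the only nitrite reductase gene of Arabidopsis, spread most within the low CO2 group. Its levels there were 11.02, 10.13 and 9.87, against 10.62, 10.96 and 11.10 in ambient CO2. Replicate 1 was higher than 2 of the ambient arrays, while replicates 2 and 3 were 0.76 and 1.02 below the ambient mean. The means were 10.34 ± 0.61 and 10.89 ± 0.25 (SD, n = 3 each), a difference of -0.55 (SE 0.30, 95% interval -1.28 to 0.17, limma adjusted p = 0.281). Without low CO2 replicate 1, NIR1 fell by 0.89 on the log2 scale, to a level 1.86-fold below ambient CO2 (limma adjusted p = 0.00847).

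NRT1.1 encodes a dual-affinity nitrate transporter that also acts as a nitrate sensor, and in shoots it is known from guard cells. Levels of NRT1.1 were 9.83, 9.34 and 9.07 in low CO2 and 9.98, 10.43 and 9.57 in ambient CO2. The ambient arrays differed among themselves at least as much as the low CO2 arrays, and replicate 1 was again inside their range. The difference was -0.58 (SE 0.27, 95% interval -1.23 to 0.06, limma adjusted p = 0.221). With low CO2 replicate 1 removed, NRT1.1 fell by 0.79 (limma adjusted p = 0.0418), and with ambient replicate 2 removed it differed by -0.37. Of the 5 guard cell markers, KAT1 differed by -1.04, FAMA by -0.38, MYB60 by -0.35, SLAC1 by -0.004 and HT1 by 0.13, and their part in the NRT1.1 value was not tested.

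NRT2.1 encodes the main high-affinity nitrate transporter of roots. On these leaf arrays it lay near the lower limit of the tested range, at 5.05, 4.70 and 4.75 in low CO2 and 4.49, 5.22 and 4.89 in ambient CO2. All low CO2 values were inside the ambient range, and the difference of -0.04 (SE 0.20, 95% interval -0.52 to 0.45, limma adjusted p = 0.922) changed sign when low CO2 replicate 2 or 3 or ambient replicate 2 was left out. It was -0.14 with low CO2 replicate 1 removed.

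Across the 8 genes, low CO2 replicate 1 lay inside the ambient range for 6 (NIA1, NIA2, NIR1, NRT1.1, NRT2.1 and AMT1;2), beside 42.7% of all tested probe sets. Low CO2 replicates 2 and 3 were both below every ambient array for 4 of 8 (NIA1, NIA2, NIR1 and NRT1.1, beside 35.1% of all tested) and both above for 3 of 8 (AMT1;1, AMT1;2 and AMT2, beside 28.5%). In each of the 4 genes replicate 1 was inside the ambient range, a pattern shared by 14.1% of all tested probe sets. This grouping was made after the values were seen. AMT1;1 and AMT2 had replicate 1 above the ambient range together with replicates 2 and 3.

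**Figure D2:**
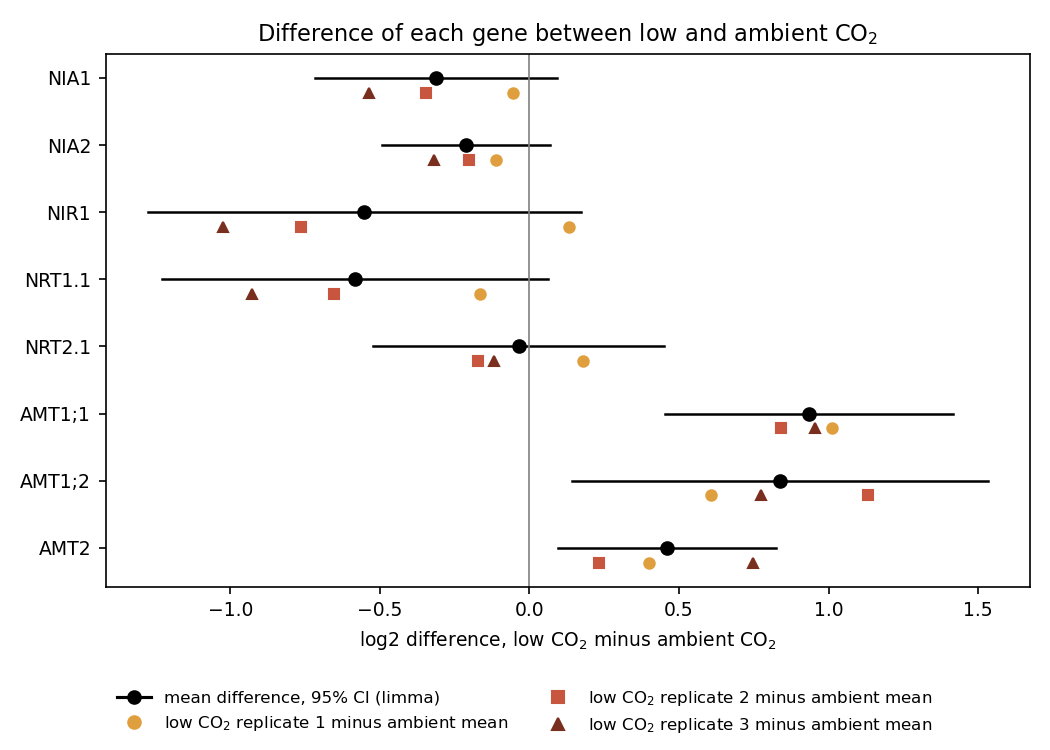
Log2 difference between low and ambient CO2 for each measured gene. Black points and lines are the limma difference with its 95% interval over 6 arrays, and coloured symbols are single low CO2 arrays minus the ambient mean. The AMT intervals lie above 0, and the intervals of the nitrate genes include 0, with low CO2 replicate 1 nearer to 0 than the other arrays for NIA1, NIA2, NIR1 and NRT1.1.

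Paralogues and consecutive enzymes were compared for unequal change within arrays. From ambient to low CO2, the log2 difference NIA2 minus NIA1 shifted by 0.10, NIA2 minus NIR1 by 0.34 and AMT1;2 minus AMT1;1 by -0.10. Exact 2-sided permutation tests gave p = 0.5, 0.4 and 0.9, and adjusted over the 3 pairs 0.75, 0.75 and 0.9. With 3 against 3 arrays such a test cannot give a p below 0.1, so these values do not show that the genes of a pair responded alike. With low CO2 replicate 1 removed the shifts were 0.18, 0.63 and 0.06.

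Probe sets with the most similar profile were found by the root mean square difference, over the 6 arrays, between log2 deviations from each probe set's own mean. The nearest to NIA1 were SDH1-1 (0.0381), a succinate dehydrogenase subunit, and the phosphatase subunit gene PP2A-2 (0.0407). NIA2 was nearest to BAT1 (0.0287), an acyltransferase of brassinosteroid metabolism, and to the ferredoxin gene FED A (0.0289). For NIR1 they were NFD6 (0.0360) and the histidine synthesis gene AT-IE (0.0403), and for NRT1.1 HCD1 (0.104) and PRP2 (0.139). AMT1;1 had HO3 (0.0599), a heme oxygenase, and DHNAT1 (0.0863), a thioesterase of phylloquinone synthesis. AMT2 was nearest to NTH2 (0.0642) and GRF3 (0.0751), AMT1;2 to MES9 (0.184) and SBT3.5 (0.202), and NRT2.1 to PDLP1 (0.0745) and TCP2 (0.0749). AMT1;2 had the largest distances, and also the largest SD of its own over the 6 arrays (0.606). The measure is not scaled to a gene's spread, so flatter genes such as NIA2 (SD 0.153) tend to have smaller distances. Such likeness over 6 arrays is a description.

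Other nitrate and ammonium transporters went both ways. Of 22 listed, 21 were measured and 18 tested, with 9 higher and 9 lower by their means. The median log2 difference was -0.003, beside -0.03 over all tested probe sets. By limma 0 passed, at an unadjusted p under 0.05 there were 2 higher and 1 lower, beside 13.5% and 12.6% of all tested probe sets. With low CO2 replicate 1 removed, 2 rose (NAR2.1 and NRT1.7) and 0 fell, beside 16.8% and 18.5%. NAR2.1, NRT1.7, NRT1.11 and CLCA are described next because they had the smallest p in this list.

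NAR2.1 encodes the partner protein that NRT2 transporters such as NRT2.1 need at the plasma membrane. Its levels were 7.65, 7.62 and 7.66 in low CO2 and 5.90, 6.49 and 6.12 in ambient CO2. The low CO2 arrays were nearly equal and stood well above every ambient array, replicate 1 included. Of all tested probe sets, 14.6% had all low CO2 arrays above all ambient arrays. The difference of NAR2.1 was 1.47 (SE 0.16), or 2.78-fold, with a limma adjusted p of 0.0719. Removing low CO2 replicate 1 left it at 1.47 (limma adjusted p = 0.00208). NRT2.2, the closest relative of NRT2.1, lay between 3.91 and 4.32 on all arrays, and the files do not say how far probes tell the pair apart.

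NRT1.7, which loads nitrate into the phloem of older leaves, stood at 7.12, 7.66 and 8.18 in low CO2 and 6.01, 7.36 and 6.34 in ambient CO2. Only ambient replicate 2 reached the low CO2 values. Its difference was 1.08 (SE 0.40, limma adjusted p = 0.161), or 1.35 with low CO2 replicate 1 removed (limma adjusted p = 0.032). NRT1.11, known for passing nitrate from xylem to phloem in leaves, differed by -0.54 (SE 0.22). Its low CO2 arrays lay below all ambient arrays, as for 14.3% of all tested probe sets. With low CO2 replicate 1 removed NRT1.11 differed by -0.35 (limma adjusted p = 0.158). CLCA, the nitrate exchanger of the vacuole membrane, differed by 0.60 (SE 0.31) with overlapping values.

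Genes that supply cofactors to both reductases, and reductant through ferredoxin to nitrite reductase, came next. This list and the other lists here were chosen with earlier results of these data known, so their counts are descriptions. Of 12 listed and tested, 8 had a lower mean and 4 a higher one, where 8718 of all 16210 tested probe sets had a lower mean. Their median log2 difference was -0.21, beside -0.03 over all tested. By limma 0 passed, at an unadjusted p under 0.05 there were 0 higher and 4 lower, beside 13.5% and 12.6% of all tested probe sets. Without low CO2 replicate 1, 7 fell and 2 rose, beside 18.5% and 16.8%, and the median was -0.39, beside -0.05 over all tested. The 7 were RFNR1, RFNR2 and G6PD3 of reductant supply, UPM1 and SIRB of siroheme synthesis, and CNX1 and CNX5 of molybdenum cofactor synthesis. The 2 that rose, CNX6 and CNX7, encode the subunits of molybdopterin synthase, in the same cofactor pathway.

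RFNR1 and RFNR2 encode root-type ferredoxin-NADP reductases, which pass electrons from NADPH to ferredoxin. RFNR1 stood at 7.19, 6.05 and 5.93 in low CO2 and 7.09, 7.13 and 7.43 in ambient CO2, a difference of -0.83 (SE 0.33). As for NIR1, low CO2 replicate 1 was within the ambient range and replicates 2 and 3 were well below it. Of all tested probe sets, 14.1% had replicate 1 within and replicates 2 and 3 below the ambient range. RFNR2 differed by -0.60 (SE 0.21), and G6PD3, a plastid glucose-6-phosphate dehydrogenase that makes NADPH, by -0.84 (SE 0.29). Without low CO2 replicate 1 the 3 genes fell by 1.23, 0.81 and 1.16 on the log2 scale. G6PD2, also on the list, differed by -0.21 (SE 0.19) with overlapping groups, and by -0.26 with low CO2 replicate 1 removed (limma adjusted p = 0.346). RFNR1, RFNR2, G6PD3 and CNX5 were named for the smallest p in the list. CNX5, which recharges molybdopterin synthase with sulfur, differed by -0.36 (SE 0.12). Every low CO2 array lay below every ambient array, as for 14.3% of all tested probe sets.

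**Figure D3:**
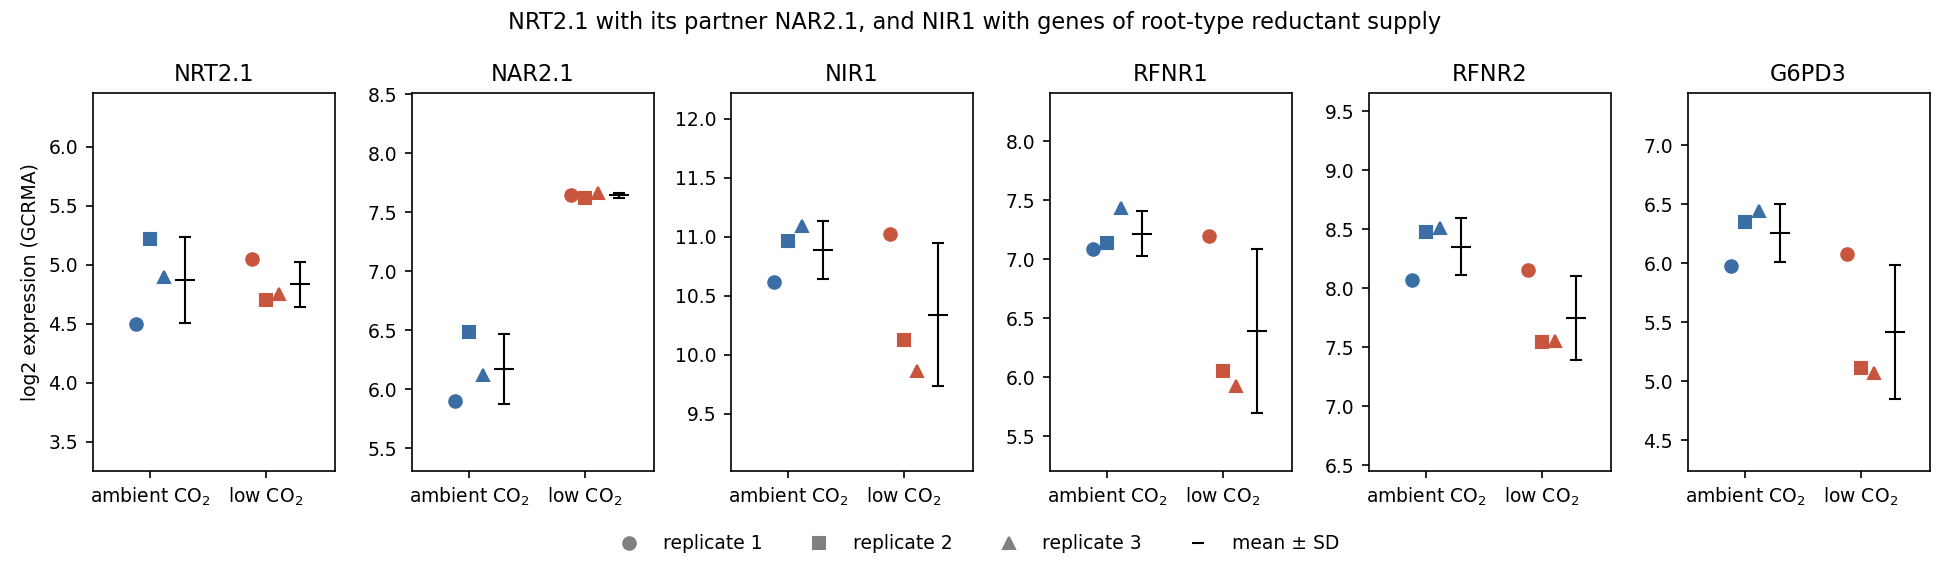
Log2 expression by array, drawn as in the plot of the 8 genes, for NRT2.1 and its partner NAR2.1, and for NIR1 beside RFNR1, RFNR2 and G6PD3. NAR2.1 is near 7.6 on all low CO2 arrays and at or below 6.49 in ambient CO2, and in the 4 panels to its right low CO2 replicate 1 lies near the ambient arrays while replicates 2 and 3 lie below. G6PD2, which had overlapping groups, is not drawn.

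Of 25 nitrate signalling genes listed, 24 were measured and 22 tested, with 17 higher and 5 lower by their means, where 7492 of all 16210 tested probe sets had a higher mean. The median log2 difference was 0.37, beside -0.03 over all tested. By limma 0 passed, at an unadjusted p under 0.05 there were 9 higher and 2 lower, beside 13.5% and 12.6% of all tested probe sets. Without low CO2 replicate 1, 10 rose and 3 fell, beside 16.8% and 18.5%. BT2, a scaffold protein known to repress NRT2 genes, stood at 4.24, 5.83 and 5.45 in low CO2 and 3.79, 3.96 and 3.82 in ambient CO2. All low CO2 arrays were above the ambient ones, and replicate 1 only slightly. The ambient levels of BT2 were all below log2 4, so it passed the filter only through the low CO2 arrays. No size is given here for its difference, although the plot of the lists includes its point. BT2 is 1 of the 17, 1 of the 9 and 1 of the 10 counted above. TGA1, a transcription factor that regulates NRT2.1 in roots, differed by 0.81 (SE 0.25), CPK10, a calcium-dependent kinase of the nitrate response, by 0.41 (SE 0.11), and LBD37, a repressor of nitrate-responsive genes, by 0.37 (SE 0.11). Their groups did not overlap, but these genes were named for the smallest p in the list. Among their relatives there, TGA4 differed by 0.08, LBD39 by 0.09, CPK30 by 0.32 and CPK32 by 0.36, each with overlapping groups. LBD38 differed by -0.33 (SE 0.11), with all low CO2 arrays below all ambient arrays. Of the 22, 6 had all low CO2 arrays above all ambient arrays and 2 below, beside 14.6% and 14.3% of all tested. BT2 is 1 of these 6, and the filter favoured its place there. Among the 3 that fell were LBD38 and NRG2, the second a regulator needed for NRT1.1 expression in roots, and TCP20 was the other.

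Ammonium made by NIR1 is taken up by glutamine synthetase and glutamate synthase. Of 8 listed and tested, 5 had a higher and 3 a lower mean, 0 passed limma, and 1 in each direction had an unadjusted p under 0.05, beside 13.5% and 12.6% of all tested probe sets. With low CO2 replicate 1 removed, 1 rose and 1 fell, beside 16.8% and 18.5%, so these counts are at the background. GLN1;1, a cytosolic glutamine synthetase, stood at 9.11, 9.54 and 10.16 in low CO2 and 8.44, 8.79 and 8.62 in ambient CO2. GLT1, the NADH-dependent glutamate synthase, stood at 8.49, 8.30 and 8.37 against 9.02, 8.81 and 9.02. These 2 genes, named for the smallest p in the list, had no overlap, with differences of 0.99 (SE 0.26) and -0.56 (SE 0.12). GLN1;3 also had no overlap, at a difference of only 0.08 (SE 0.10). Of all tested probe sets, 14.6% had all low CO2 arrays above all ambient arrays and 14.3% below. GLN2 and GLU1, the chloroplast enzymes that refix photorespiratory ammonium, differed by -0.02 (SE 0.10) and 0.07 (SE 0.11), and were singled out after their values were seen. GLU2 and GLN1;2 differed by -0.20 (SE 0.19) and 0.16 (SE 0.16), and by -0.03 and 0.07 with low CO2 replicate 1 removed.

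**Figure D4:**
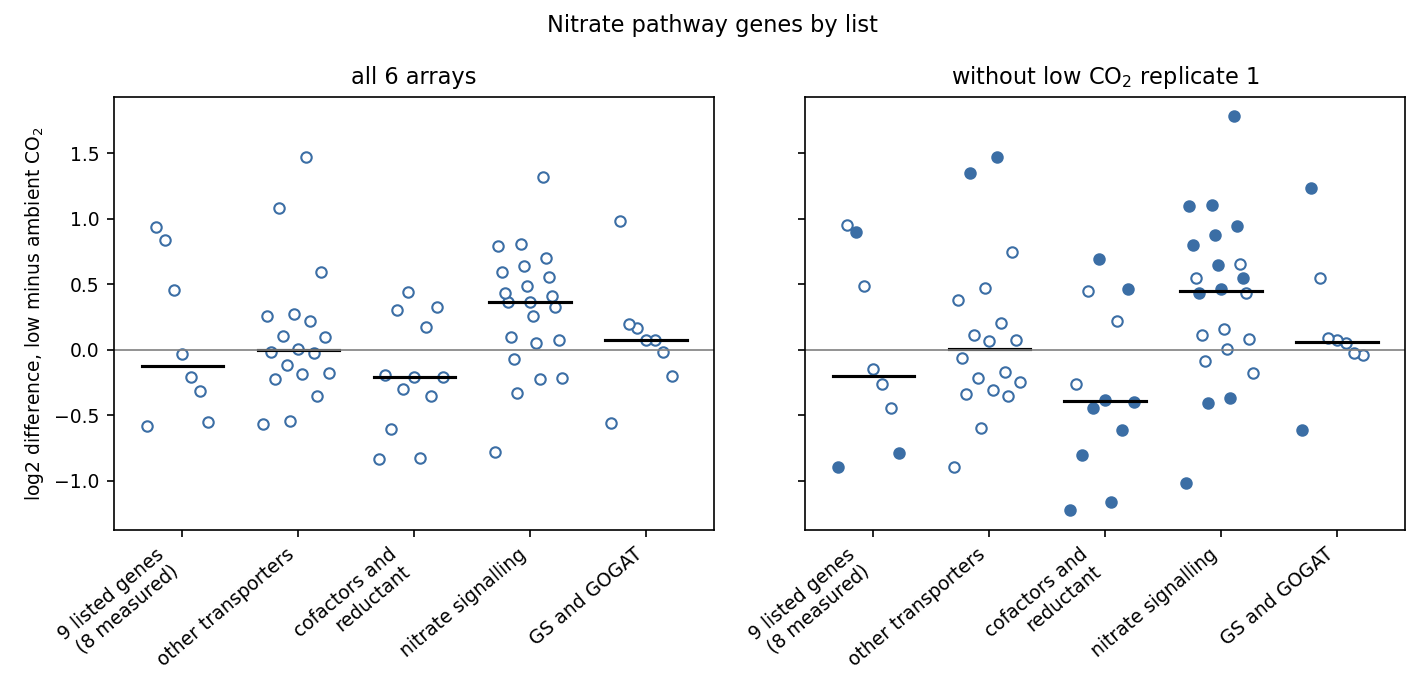
Log2 difference of each tested gene in the nitrate lists over all 6 arrays (left) and without low CO2 replicate 1 (right). Filled points passed a limma adjusted p of 0.05, open points did not, and black lines are medians. No point is filled on the left. On the right the cofactor and reductant list has 7 filled points below 0 and 2 above, and the signalling list 10 above and 3 below. BT2, 1 of the 10, passed the filter only through the low CO2 arrays, so its point does not give a reliable size.

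Clock genes were included because nitrate reductase transcripts cycle daily. Of 10 listed, 8 were measured and 6 tested, with 5 higher by their means, where 7492 of all 16210 tested probe sets had a higher mean. The median log2 difference was 0.58, beside -0.03 over all tested. PRR5 and ELF4 did not pass the filter, although PRR5 reached log2 7.05 on its highest array, so the counts and median leave them out. TOC1 differed by 0.76 (SE 0.22), PRR7 by 0.61 (SE 0.18), CCA1 by 0.55 (SE 0.19) and GI by 1.08 (SE 0.51), all named for the smallest p in the list. RVE8 differed by 0.15 (SE 0.18). LHY went the other way, at -0.40 (SE 0.36), or -0.71 with low CO2 replicate 1 removed. By limma 0 passed, and without low CO2 replicate 1 TOC1, PRR7, CCA1 and GI rose, beside 16.8% of all tested probe sets. No source used here gives the time of day of harvest, and the part of the clock in the nitrate genes' values was not tested.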

How the data were processed

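Deposited values are on the log2 scale. The authors made them with GCRMA (submitters' processing notes, no version). Biotin-labelled cRNA came from 5 µg total RNA, per the labels. The log base was read from the values (2.62 to 14.20 over all arrays). No source used here states the probe set grouping or genome build, so no coordinates are printed. Names come from a RefSeq table of TAIR10.1, which held 21231 of 21430 loci.

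Low and ambient CO2 (3 arrays each, groups from the labels) were compared in limma 3.58.1 (R 4.3.3; lmFit, eBayes, no covariate, 2-sided). Probe sets needed log2 4 on 3 or more arrays, and p was adjusted by Benjamini-Hochberg at 0.05 over 16210 probe sets. The fit was tested on simulated data. Member pairs had exact permutation tests.

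Genes and lists were chosen with earlier results of these data known. Named were all 9 genes, the 4 members with the smallest p of each list other than cell markers, and the 2 probe sets nearest in profile to each gene. Others were named after their values were seen. Alternatives were a floor of log2 5, no filter, trended robust eBayes, quantile normalization, median centring, a replicate block, array weights, Holm adjustment and each array left out. Figures used matplotlib 3.10.9 in Python 3.11.15.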

Additional observations from a re-analysis of the deposited data

How the results depend on the processing

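With all 6 arrays, 0 of 8 genes passed limma under no filter, trended robust eBayes, quantile normalization, median centring and Holm adjustment, and 0 of the 7 left under a floor of log2 5, which removed NRT2.1. Array weights called 2 genes higher (AMT1;1 at 0.97, AMT1;2 at 1.14) and 4 lower (NIA1 at -0.39, NIA2 at -0.25, NIR1 at -0.86, NRT1.1 at -0.55), but the estimation stopped short of its tolerance and put a weight of 40.4 on low CO2 replicate 2, against 0.119 to 1.56 on the other arrays, so that this fit rests on 1 array. Its calls over all probe sets were 4798 higher and 5573 lower. Leaving out low CO2 replicate 1 called 2722 and 3001, and any other single array 0 and 0, with 2034 to 3972 at an unadjusted p under 0.05. Over the 6 omissions the genes called higher numbered 0 to 1 and lower 0 to 2, and the difference ran from -0.89 to -0.32 for NIR1, -0.79 to -0.37 for NRT1.1, -0.44 to -0.20 for NIA1 and 0.81 to 1.16 for AMT1;1. NRT2.1 ran from -0.22 to 0.14 and reversed to 0.03, 0.004 and 0.14 without low CO2 replicate 2, low CO2 replicate 3 and ambient replicate 2. The pair shift of NIA2 minus NIA1 ran from -0.002 (without ambient replicate 2, reversed) to 0.18, that of NIA2 minus NIR1 from 0.16 (without low CO2 replicate 3) to 0.63 (without low CO2 replicate 1), and that of AMT1;2 minus AMT1;1 from -0.51 to 0.35, reversed at 0.06 without low CO2 replicate 1 and 0.35 without ambient replicate 2. The cause was not tested.

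No pairing of the arrays by replicate number was seen over the tested probe sets. Deviations of same-numbered arrays from their group means correlated at -0.193, 0.0163 and -0.198. In all, 0 of 3 low CO2 arrays and 1 of 3 ambient arrays correlated best with the array of their own number in the other group. With 3 arrays per group such deviations depend on each other, so this check cannot show whether the arrays are paired. With the replicate block, 0 genes passed, 3223 probe sets had an unadjusted p under 0.05 where 4236 did without it, and AMT1;1 differed by 0.93. The block left the differences unchanged but not their SE. It was smaller for AMT1;2 (0.165 against 0.292) and NRT1.1 (0.213 against 0.271), and larger for NIA1 (0.194 against 0.171) and NIR1 (0.344 against 0.305).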
